A study of Mus musculus with 11 samples.

Results

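The genes described here are 8 secreted ligands and transcription factors of blood vessel growth: Vegfa, Vegfb, Vegfc, Angpt1, Angpt2, Apln, Hif1a and Epas1. They were chosen by symbol and matched to their Ensembl identifiers among the 53465 genes of a muscle count table. All 8 passed the filter on low counts, as did 14117 genes in all. RNA of the quadriceps, a thigh muscle, was sequenced from aged mice of the strain written C57L/6JRj, given either myriocin (6 libraries) or its solvent DMSO (5 libraries). The mice were 18 months old when treatment started, and they were treated for 10 weeks; strain and age were common to both groups. Myriocin is a fungal inhibitor of serine palmitoyltransferase, the enzyme that opens sphingolipid synthesis. The sources used here give no dose, route or sex, and nothing says that each library is a separate mouse. The p-values therefore measure the spread between these libraries, which may be technical. The question addressed is whether the vascular ligands of aged muscle differ after this treatment.

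Vascular endothelial growth factors (VEGFs) bind receptor kinases on endothelial cells and drive sprouting, survival and permeability of vessels. In muscle the fibres themselves make much of the VEGF-A that keeps capillaries in place. The angiopoietins act on the receptor Tie2, encoded by Tek: angiopoietin-1, made largely by cells around the vessel, steadies it, and angiopoietin-2, released by endothelium, often opposes that. Apelin is a peptide of sprouting endothelium. The hypoxia-inducible factors HIF-1 alpha (Hif1a) and HIF-2 alpha (Epas1) are degraded while oxygen is plentiful and otherwise switch on VEGF-A and many other genes, so their transcript level is only a part of their regulation.

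Reads assigned to genes numbered 22241131 in the shallowest library and 23163721 in the deepest. Levels are given as CPM, the usual scaling of a gene's count by that total, and the detection floor of 3 counts corresponds to 0.130 to 0.135 CPM. Summed CPM of 8 muscle fibre markers, among them Ckm, Acta1 and Myh4, lay between 150140 and 187970 in all libraries. Some libraries stood apart. DMSO replicate 2 had the highest summed neutrophil (425 CPM), macrophage (264 CPM) and adipocyte (325 CPM) markers of its group. DMSO replicates 4 and 5 and Myriocin replicate 4 carried liver transcripts, with sums of 113, 96.3 and 118 CPM, where the other libraries had 5.75 to 27.9 CPM. Where leaving out these libraries moved a member's fold change by over 1.5 times, both values are given.

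None of the members passed the test for a treatment difference. With edgeR's quasi-likelihood test, 0 of 8 passed an adjusted p of 0.05 and 0 reached an unadjusted p under 0.05. Over all 14117 genes 0% passed the adjusted threshold and 4.68% (660 genes) the unadjusted threshold, 2.33% higher and 2.34% lower with myriocin, and DESeq2 called 6 genes and limma-voom 0, none of them a member. In CPM the groups of every member overlapped, and 0.602% of all genes had groups that did not overlap. Of those 85 genes 76 (0.538%) were lower and 9 (0.0638%) higher with myriocin, a split that became 23 lower (0.163%) and 28 higher (0.198%) after scaling by the trimmed mean of M values (TMM). The members' log2 fold changes, myriocin minus DMSO, had a median of -0.09, with 3 positive and 5 negative. Over all genes the median was -0.01, with 6530 positive and 7587 negative.

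Measured per kilobase of exon, the members spanned a wide range of levels. Vegfb stood highest, at 82.7 ± 11.7 CPM per kilobase (SD, n = 11), followed by Vegfa at 44.3 ± 6.41 and Epas1 at 28.9 ± 2.92. Each of these 3 lay above the next gene in all 11 libraries, and their ranges did not overlap. Epas1 stood 10.8-fold above Hif1a, which had 2.68 ± 0.385 CPM per kilobase. Hif1a and Angpt1 (2.05 ± 0.313) overlapped in range, though Hif1a was the higher in each of the 11 libraries. Both share exon positions with other annotated genes. Reads ambiguous between genes were not counted while the full exon length was kept, so the levels of Hif1a and Angpt1 may be too low. Vegfc came next at 0.832 ± 0.163, ahead of Angpt2 at 0.529 ± 0.144 in 10 of 11 libraries and with overlapping ranges. Angpt2 and Apln (0.442 ± 0.123) did not differ beyond their spread, Angpt2 being the higher in 8 of 11 libraries. Vegfc, Angpt2 and Apln were counted with only 21 to 66 reads per library, so counting error takes a large share of their spread.

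**Figure D1:**
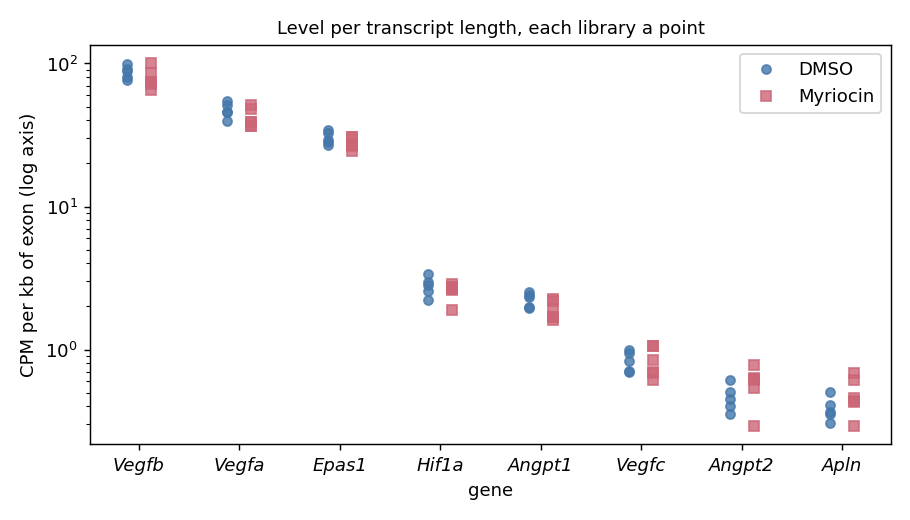
Level of each gene in CPM per kilobase of exon (log axis), with every library as a point, DMSO as circles and myriocin as squares, genes ordered by their mean. Vegfb, Vegfa and Epas1 lie between 24.6 and 101 CPM per kilobase in all libraries, and the other 5 genes at or below 3.38.

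VEGF-A is the main angiogenic ligand of this family. Vegfa (ENSMUSG00000023951, GRCm38 chr17:46016993-46032369, minus strand) had 233, 169, 221, 195 and 198 CPM in DMSO replicates 1 to 5. In the myriocin libraries it had a lowest value of 157, a median of 167 and a highest of 218 CPM. Replicates 1 to 4 of the myriocin group lay below every DMSO library in CPM, while replicates 5 and 6 lay inside the DMSO range. After the TMM scaling used in the test 1 of 6, replicate 3, lay below it, and 4 of 6 below the DMSO mean of log2 CPM. The means were 203 ± 24.8 CPM (SD, n = 5) and 179 ± 26.3 CPM (SD, n = 6). For Vegfa the fitted log2 fold change was -0.15 (SE 0.11, 95% interval -0.38 to 0.08; edgeR adjusted p = 0.936), which bounds the change between 23.1% lower and 5.38% higher.

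VEGF-B binds VEGF receptor 1 and is known for effects on fatty acid handling and on the heart rather than on sprouting. Vegfb (ENSMUSG00000024962, chr19:6982473-6987651, minus strand) had 147, 122, 143, 129.5 and 159.9 CPM with DMSO, and 105, 119 and 162 CPM as the lowest, median and highest with myriocin. In CPM 4 of the 6 myriocin libraries lay below the DMSO range and 1, replicate 4, above it. After TMM 1 lay below it, replicate 3, and replicate 4 still above it. This gave a log2 fold change of -0.12 (SE 0.12, 95% interval -0.37 to 0.13; edgeR adjusted p = 0.943). It was -0.22 without Myriocin replicate 4 (unadjusted p = 0.0379, edgeR adjusted p = 0.471) and -0.05 without DMSO replicate 5, the highest of its group. Without DMSO replicate 2 it was -0.18, and without all 3 of these libraries -0.21 (unadjusted p = 0.0182, edgeR adjusted p = 0.566).

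VEGF-C acts mainly on lymphatic endothelium. Vegfc (ENSMUSG00000031520, chr8:54077606-54187096, plus strand) had 2.33, 1.74, 1.72, 2.03 and 2.43 CPM with DMSO, against 1.51, 1.88 and 2.61 CPM as the lowest, median and highest with myriocin. The myriocin libraries spread to both sides of the DMSO range, with 3 below it and 2 above it in CPM, and 1 below and 2 above after TMM. Its log2 fold change of 0.02 (SE 0.18, 95% interval -0.37 to 0.41; edgeR adjusted p = 0.994) changed sign with the libraries or scaling used. It was 0.17 without the 3 libraries with liver transcripts, 0.07 without DMSO replicates 2 and 5 and Myriocin replicate 4, and -0.05 without DMSO replicate 2. Leaving out DMSO replicate 5 gave 0.10, and leaving out Myriocin replicate 4 gave 0.06. Lymphatic markers were low in this tissue. Prox1, the factor that defines lymphatic endothelium, had 1.09 ± 0.176 CPM (SD, n = 5) and 0.981 ± 0.282 CPM (SD, n = 6).

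Among the other VEGF ligands, Pgf (placental growth factor, a ligand of VEGF receptor 1) had a log2 fold change of 0.20 (SE 0.20), and Vegfd, a second lymphatic ligand, 0.09 (SE 0.13). The receptors gave values on either side of 0 with intervals that all included it. Flt1 (VEGF receptor 1) averaged 63.4 ± 4.98 CPM over the 5 DMSO and 56.9 ± 5.47 CPM over the 6 myriocin libraries (SD), a log2 fold change of -0.12 (SE 0.08). Kdr (VEGF receptor 2, the main signalling receptor of VEGF-A) had -0.06 (SE 0.14) and Flt4 (VEGF receptor 3) 0.02 (SE 0.14). The co-receptors Nrp1 and Nrp2 had -0.02 (SE 0.12) and 0.02 (SE 0.12). Of the 8 receptor genes listed for the 3 ligand families, 6 were negative and 2 positive, with a median of -0.09. None reached an unadjusted p under 0.05, and the edgeR adjusted p was at least 0.936 for each.

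The angiopoietins had fold changes of opposite sign. Angpt1 (ENSMUSG00000022309, chr15:42424723-42676977, minus strand) had 13.2, 12.2, 12.5, 10.2 and 10.3 CPM with DMSO. With myriocin its lowest, median and highest values were 8.39, 9.44 and 11.7 CPM. The DMSO mean was 11.7 ± 1.34 CPM (SD, n = 5); each of the 6 myriocin values was lower than it, and 4 were lower than any DMSO value. After TMM the same 4, replicates 2, 3, 4 and 6, lay below the DMSO range, and the other 2 above the DMSO mean of log2 CPM. The log2 fold change of -0.21 (SE 0.11, 95% interval -0.43 to 0.02) had the smallest unadjusted p of the members, 0.0692, and an edgeR adjusted p of 0.936. One annotated antisense gene, Gm17473, shares exon positions with Angpt1, and the strand setting of the counting is not given. Reads at the shared positions may therefore have been left out as ambiguous or credited to the wrong gene.

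Angpt2 (ENSMUSG00000031465, chr8:18690263-18741562, minus strand) lies within the span of Mcph1 on the opposite strand, without shared exons. It had 2.24, 1.31, 1.68, 1.86 and 1.48 CPM with DMSO, and 1.08, 2.28 and 2.90 CPM as the lowest, median and highest in the treated libraries. Myriocin replicates 2, 3, 4 and 6 exceeded every DMSO library, while Myriocin replicate 1 lay below all of them. The margin was small for replicates 2, 3 and 6, with 54, 52 and 52 reads against 51 in DMSO replicate 1. Myriocin replicate 4 had 66 reads. The fitted log2 fold change was 0.36 (SE 0.22, 95% interval -0.11 to 0.83; edgeR adjusted p = 0.936). It fell to 0.24 without Myriocin replicate 4, and to 0.07 without that library and DMSO replicates 2 and 5, the 3 that an earlier analysis of these data found farthest out.

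The ratio of the angiopoietins was also taken within each library, without a test since the pair was picked with results known. The log2 of Angpt2 over Angpt1 was -2.56, -3.22, -2.90, -2.46 and -2.80 in DMSO replicates 1 to 5, a mean of -2.79 ± 0.30 (SD, n = 5). With myriocin it had a lowest value of -3.41, a median of -2.02 and a highest of -1.60, a mean of -2.25 ± 0.65 (SD, n = 6). Myriocin replicates 2, 3, 4 and 6 lay above every DMSO library, replicate 5 within the DMSO range and replicate 1 below it. The log2 ratio of Vegfa to Vegfb, by contrast, averaged 0.53 ± 0.14 and 0.50 ± 0.30 in the same groups, with Myriocin replicate 4 lowest at -0.04 and replicate 6 highest at 0.88.

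**Figure D2:**
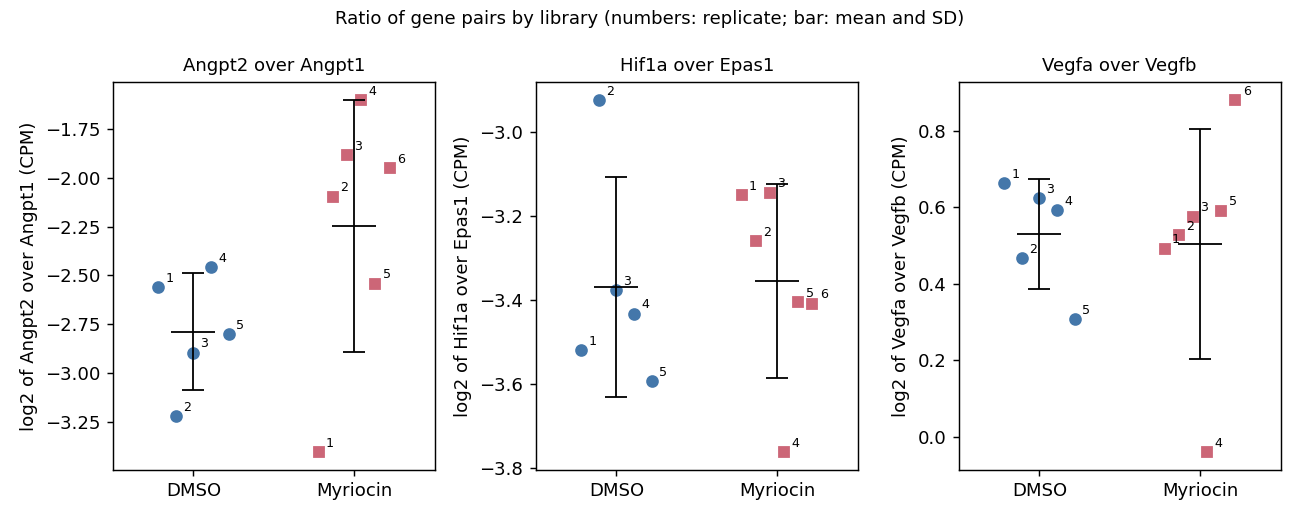
Log2 ratio of CPM values for 3 pairs of genes in each library (points, numbered by replicate), with the mean and SD of each group as bars. The ratio of Angpt2 to Angpt1 lies above all DMSO libraries in 4 of 6 myriocin libraries, and Myriocin replicate 1 is the lowest of all at -3.41.

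The angiopoietin receptor gene Tek averaged 22.1 ± 2.28 CPM over the 5 DMSO and 19.4 ± 2.91 CPM over the 6 myriocin libraries (SD), a log2 fold change of -0.16 (SE 0.11). Its partner Tie1 had -0.15 (SE 0.09). Angpt4, a further Tie2 ligand, was barely detected, at 0.520 ± 0.275 CPM and 0.378 ± 0.165 CPM, with a log2 fold change of -0.41 (SE 0.40). The angiopoietin-like genes, whose proteins do not act through Tie2, were measured beside them. Angptl2, a matrix and inflammation factor, had 50.9 ± 6.40 CPM with DMSO and 59.5 ± 6.27 CPM with myriocin. Its log2 fold change was 0.26 (SE 0.08), with an unadjusted p of 0.00699 and an edgeR adjusted p of 0.936. Angptl4, an inhibitor of lipoprotein lipase, had 18.5 ± 3.82 and 12.1 ± 5.27 CPM (-0.58, SE 0.29; edgeR adjusted p = 0.936). Angptl1 had 0.15 (SE 0.23). Of 6 tested genes in this list of other ligands, 4 were positive and 2 negative, and 1 reached an unadjusted p under 0.05.

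Apelin was the member with the lowest level. Apln (ENSMUSG00000037010, chrX:48025146-48034853, minus strand) had 1.14, 0.958, 1.59, 1.30 and 1.12 CPM with DMSO, and 0.918, 1.42 and 2.17 CPM as the lowest, median and highest with myriocin. Myriocin replicates 5 and 6 lay above every DMSO library. Replicate 3 lay below all of them in CPM but not after TMM. Apln had a log2 fold change of 0.36 (SE 0.22, 95% interval -0.11 to 0.84; edgeR adjusted p = 0.936), an interval from 7.43% lower to 78.4% higher. It was 0.23 without DMSO replicates 2 and 5 and Myriocin replicate 4. The apelin receptor gene Aplnr averaged 4.71 ± 0.750 CPM in the 5 DMSO libraries and 4.24 ± 1.59 CPM in the 6 myriocin libraries (SD), which gave -0.12 (SE 0.22) on the log2 scale. Apela, which encodes the other peptide of this receptor, had at most 1 count in any library and was not tested.

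**Figure D3:**
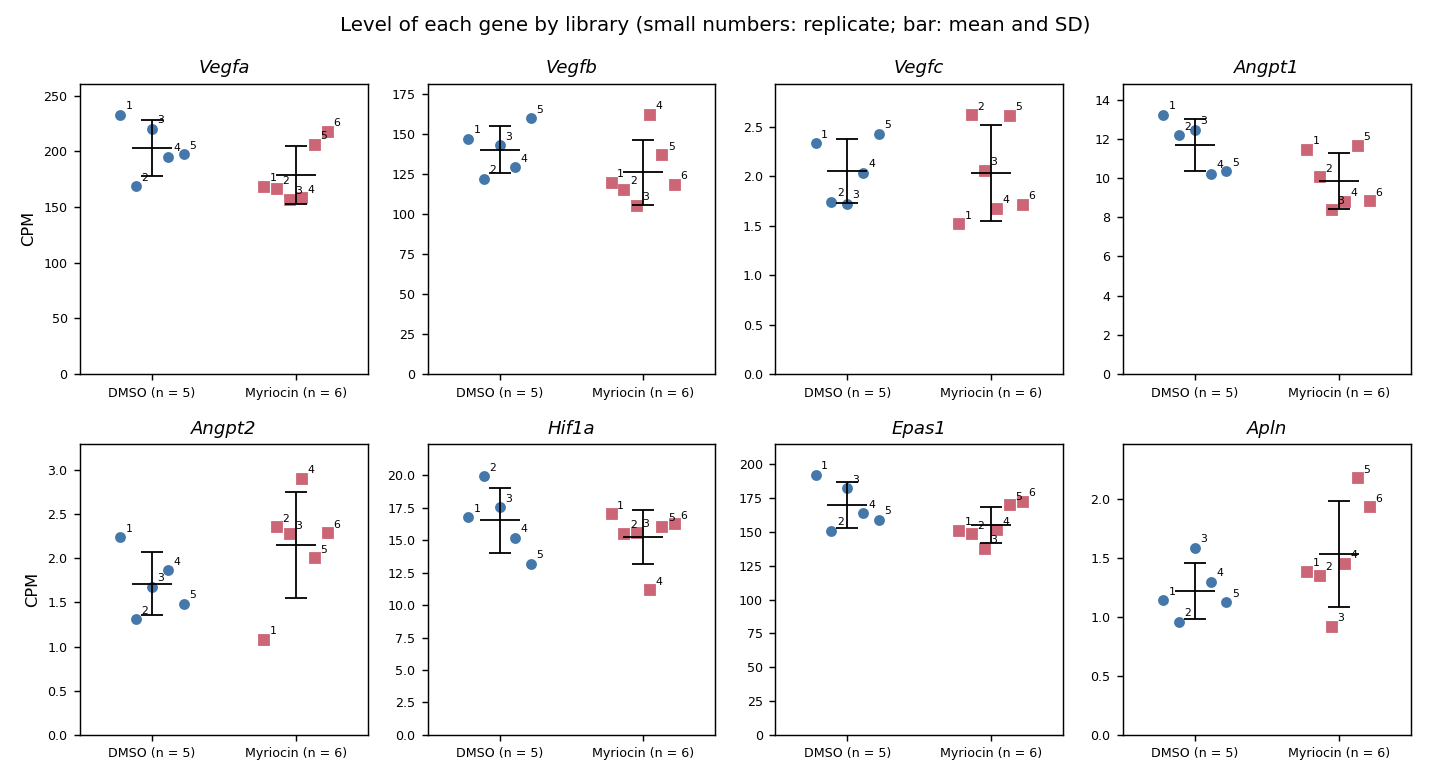
CPM of each gene in each library (points, numbered by replicate), with the mean and SD of the 5 DMSO and 6 myriocin libraries as bars and axes starting at 0. The groups overlap for every gene, and Myriocin replicates 5 and 6 are the highest of their group for Vegfa, Epas1 and Apln.

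HIF-1 alpha is the widely expressed oxygen-regulated factor. Hif1a (ENSMUSG00000021109, chr12:73901375-73947530, plus strand) had 16.8, 19.9, 17.5, 15.2 and 13.2 CPM with DMSO, and 11.2, 15.8 and 17.0 CPM as the lowest, median and highest with myriocin. Myriocin replicate 4, at 11.2 CPM, was the lowest of all libraries, and the other 5 of its group lay within the DMSO range. The log2 fold change of -0.08 (SE 0.10, 95% interval -0.30 to 0.15; edgeR adjusted p = 0.949) became -0.01 without that library and -0.02 without DMSO replicate 2, the highest of its group. Without DMSO replicate 5 it was -0.14, and without both DMSO libraries and Myriocin replicate 4 it was -0.02. Hif1a shares exon positions with 2 other annotated genes, the antisense Gm15283 and the same-strand Gm49321, so its counts are uncertain and may be too low.

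HIF-2 alpha is the form most typical of endothelium, and is also found in oxidative muscle fibres. Epas1 (ENSMUSG00000024140, chr17:86753700-86833410, plus strand) had 192, 151, 182, 164 and 159 CPM with DMSO, and 138, 151 and 172 CPM as the lowest, median and highest with myriocin. In CPM 3 of the myriocin libraries lay below the DMSO range and none above it. After TMM 1 did, replicate 3. Epas1 had a log2 fold change of -0.10 (SE 0.08, 95% interval -0.27 to 0.08; edgeR adjusted p = 0.936). Without DMSO replicate 2 it was -0.15 (unadjusted p = 0.0722), and without DMSO replicates 2 and 5 and Myriocin replicate 4 it was -0.18 (unadjusted p = 0.0406, edgeR adjusted p = 0.612). Among the members the interval over all 11 libraries was the narrowest, and it bounds the change between 17.1% lower and 5.75% higher. The log2 ratio of Hif1a to Epas1 averaged -3.37 ± 0.26 with DMSO (SD, n = 5) and -3.35 ± 0.23 with myriocin (SD, n = 6).

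The HIF partners and oxygen sensors, a list chosen for their role, did not part the groups. Their median log2 fold change was -0.01 (9 tested, 4 positive, 5 negative), and none had an unadjusted p under 0.05. The 4 with the smallest p were Cited2, which competes with HIF for its coactivator (-0.16, SE 0.09), the HIF prolyl hydroxylase Egln3 (-0.20, SE 0.15), the asparagine hydroxylase Hif1an (0.08, SE 0.08) and the main prolyl hydroxylase Egln1 (-0.06, SE 0.07). The 20 hypoxia-responsive genes had a median of 0.04 (14 positive, 6 negative), and 1 had an unadjusted p under 0.05. That gene was Pfkfb4, a regulator of glycolysis, with 45.0 ± 5.25 and 52.3 ± 4.11 CPM (0.25, SE 0.08; edgeR adjusted p = 0.936). The glycolytic enzyme gene Pgk1 (0.16, SE 0.08), the stress gene Ndrg1 (-0.18, SE 0.11) and Egln3, which is on both lists, followed.

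**Figure D4:**
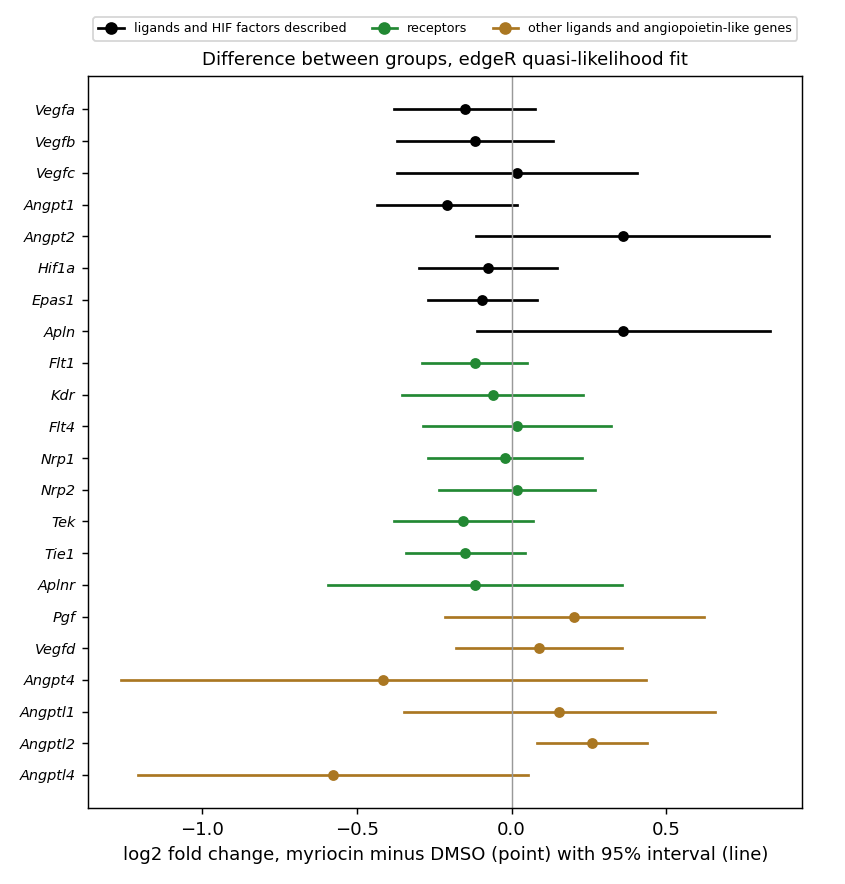
Log2 fold change, myriocin minus DMSO, from the edgeR fit (points) with its 95% interval (lines) for the 8 genes described, 8 receptors and 6 other ligands. The intervals of all 8 members and all 8 receptors include 0, and that of Angptl2 does not, with an adjusted p of 0.936.

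Across libraries, Vegfa and Epas1 varied together. Over the 11 libraries Pearson's r of their log2 CPM was 0.95 (permutation p = 1e-05, the smallest that 100000 resamples can give, 2-sided) and Spearman's rho 0.95 (permutation p = 5e-05). Adjusted over the 28 pairs of members the p-values were 0.00028 and 0.0014. Without the 2 libraries farthest from the Vegfa median r was 0.92, and with the group means removed it was 0.94. It was 0.90 within the 6 myriocin libraries (exact permutation p = 0.0139, 2-sided; rho 0.83, exact permutation p = 0.0583). Within the 5 DMSO libraries, too few to test, r was 0.98.

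Vegfa had a gap between 169 and 195 CPM that parted 5 libraries (DMSO replicate 2 and Myriocin replicates 1 to 4) from the other 6. Within those 6 r was 0.93 (exact permutation p = 0.00833, 2-sided; rho 0.89, exact permutation p = 0.0333), and within the 5 it was 0.83 without a test. The split was made on Vegfa's own values in these data, and its p-values are not adjusted. Of 11712 genes compared with Vegfa, none had a higher r than Epas1. The genes compared had a mean of at least 1 CPM, and predicted and clone-named genes were left out. Of the same number compared with Epas1 only Hadhb, a subunit of the mitochondrial trifunctional protein of fatty acid oxidation, had a higher r than Vegfa (0.95). An r of at least 0.8 was reached by 33 of the genes compared with Vegfa and by 52 of those compared with Epas1. Correlations between genes of the same libraries share depth, scaling and cell makeup.

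**Figure D5:**
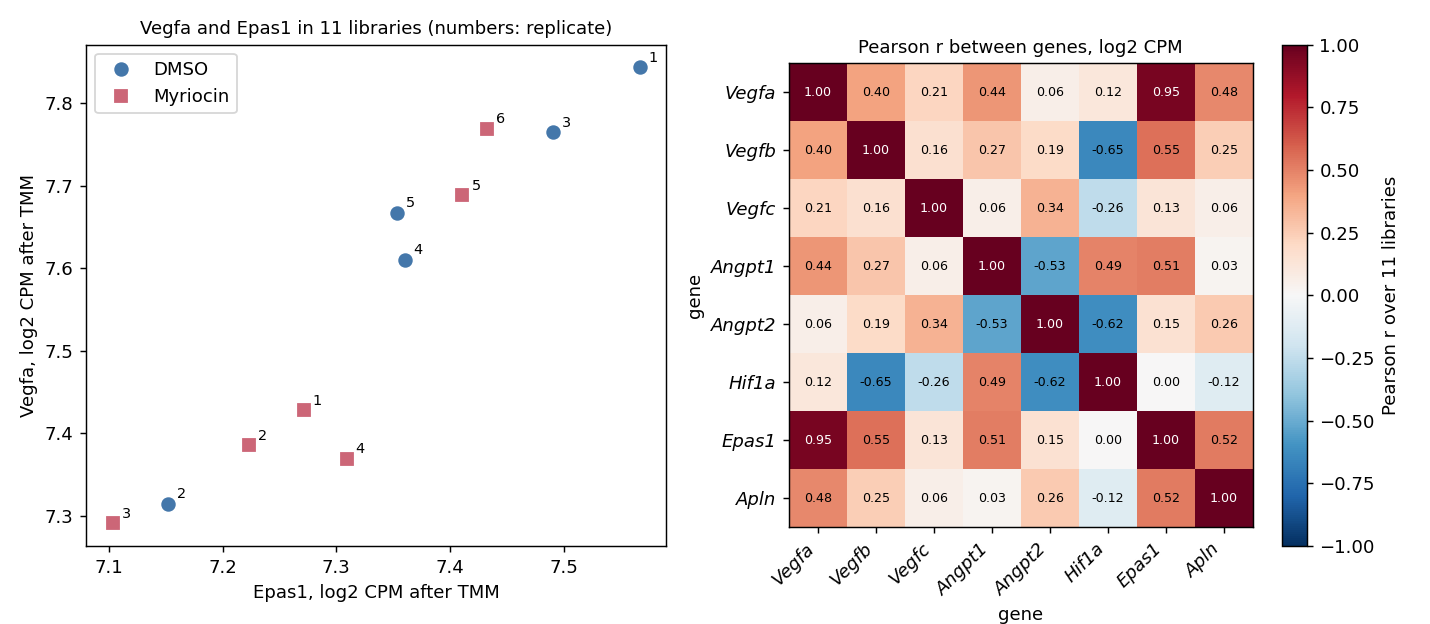
Left, Vegfa against Epas1 in log2 CPM after TMM scaling, each point a library numbered by replicate, DMSO as circles and myriocin as squares. Right, Pearson r over 11 libraries for every pair of the 8 genes; the pair in the left panel, at 0.95, is the only one past an adjusted p of 0.05.

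No other pair of members passed the adjusted threshold. The next smallest p belonged to Vegfb and Hif1a, with an r of -0.65 (permutation p = 0.0282, adjusted 0.391) and a rho of -0.38 (permutation p = 0.249, adjusted 0.498). It rested on the 2 libraries farthest from the Vegfb median, with an r of 0.08 without them. With them kept, r was -0.77 with the group means removed, -0.78 within DMSO and -0.76 within myriocin, none of these tested. Angpt2 and Hif1a had an r of -0.62 (permutation p = 0.0419, adjusted 0.391) and a rho of -0.54 (permutation p = 0.0953, adjusted 0.364), with an r of -0.40 without the 2 farthest. Hif1a and Epas1 gave an r of 0.00 (permutation p = 0.995, adjusted 0.995) and a rho of 0.11 (permutation p = 0.754), with an r of -0.05 without the 2 farthest. Vegfa and Hif1a gave an r of 0.12 (permutation p = 0.743) and a rho of 0.20 (permutation p = 0.560). Epas1 and Apln had an r of 0.52 (permutation p = 0.0988, adjusted 0.418). It was 0.80 with the group means removed and 0.71 without the 2 farthest. For Vegfa and Apln r was 0.48 (permutation p = 0.138, adjusted 0.430), with 0.78 and 0.08 in the same order. Apln had only 21 to 50 reads per library, and the values with group means removed were not tested. These pairs with Apln were named after seeing the data.

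The genes whose pattern over the 11 libraries was most like each member, are named by Pearson's r alone among 11705 candidates that leave out the members. The members' own correlations are those given above, where Epas1 stood ahead of every gene compared for Vegfa, and Vegfa behind Hadhb alone for Epas1. Among the candidates, those for Vegfa were Erbb3 (0.93), Hadhb (0.90) and Tmem65 (0.89), and for Epas1 Hadhb (0.95), Egln3 (0.93) and Akap1 (0.93). Vegfb was most like Sdhc, a subunit of respiratory complex II (0.96), Dmac2 (0.95) and Rhot2 (0.95). Hif1a was most like Diaph2 (0.97), Iqgap1 (0.95) and Ahcyl1 (0.95). Angpt1 was nearest to Afap1l2 (0.88), Chrdl1 (0.87) and Rasgrf2 (0.87), and Angpt2 to St6galnac6 (0.90), Gtf2ird1 (0.87) and Tspan9 (0.86). Apln was nearest to Tfrc, the transferrin receptor (0.87), Tmem107 (0.82) and Kcnh2 (0.79), and Vegfc to Efcab2 (0.90), Kdm8 (0.88) and Hoxa9 (0.84).

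As Vegfa and Epas1 varied together, the promoter sequences were searched for the HIF core motif. RefSeq promoters on GRCm38.p6 were at hand for Vegfa, Vegfb, Vegfc, Hif1a and Apln, and the 250 bases before each start were read; Angpt1, Angpt2 and Epas1 have no entry. The letters searched on both strands were ACGTG and GCGTG. Over 32851 promoters of the same length 38.6% hold at least 1 of them, 16.6% ACGTG and 28.2% GCGTG. A match is a description, not a site. The window before the upstream Vegfa start is shown because it is the promoter of the member tied to Epas1. Its 250 bases hold 0 of the HIF letters, and bases farther upstream were not read. The window also holds 2 copies of GGGCGG, the GC box bound by Sp1, in capitals, which 32.7% of promoters hold on either strand.
Vegfa, chr17:46032378-46032627, minus strand: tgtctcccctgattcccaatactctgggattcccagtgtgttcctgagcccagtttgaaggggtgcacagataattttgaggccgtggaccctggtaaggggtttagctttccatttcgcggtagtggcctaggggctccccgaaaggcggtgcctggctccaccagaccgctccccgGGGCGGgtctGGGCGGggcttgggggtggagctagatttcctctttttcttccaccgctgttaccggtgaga

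HIF letters, in capitals below on either strand, were found before a second Vegfa start inside the gene, before Vegfb and before Hif1a, and are shown with their flanks to set them side by side. The stretch of Vegfa lies in a coding exon. That of Vegfb lies outside any annotated gene, and those of Hif1a lie within the GENCODE M21 spans of Hif1a and Gm15283, outside exons; another match, at -237 of Vegfb, is not shown. At -134 of Hif1a the letters stand in CACGTG, which reads the same on both strands and is also an E-box. None was found in the windows of Vegfc and Apln, which says only that these letters are not in these 250 bases.
Vegfa, chr17:46025352-46025392, minus strand: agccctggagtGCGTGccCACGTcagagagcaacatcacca
Vegfb, chr19:6987710-6987750, minus strand: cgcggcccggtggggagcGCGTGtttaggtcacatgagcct
Hif1a, chr12:73907715-73907755, plus strand: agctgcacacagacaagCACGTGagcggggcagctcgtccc
Hif1a, chr12:73907779-73907819, plus strand: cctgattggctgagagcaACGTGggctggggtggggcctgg

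Markers of the cells that make or receive these ligands were set beside them. Of 15 endothelial markers 13 had negative and 2 positive log2 fold changes, with a median of -0.09. Only Cldn5 reached an unadjusted p under 0.05 (-0.51, SE 0.14; edgeR adjusted p = 0.936). Their summed level was 429.5 to 451 CPM with DMSO and 332 to 428.7 CPM with myriocin, without overlap and lowest in Myriocin replicate 3, and none was at 0. Their mean log2 CPM after TMM overlapped between the groups, at 4.35 to 4.43 and 3.98 to 4.40. Of 9 tested pericyte and smooth muscle markers 8 were negative and 1 positive, with summed levels of 527 to 661 and 499.9 to 635 CPM. The 8 fibre markers had 6 positive and 2 negative values, with a median of 0.11. Among them only Myh4 reached an unadjusted p under 0.05 (0.20, SE 0.08; edgeR adjusted p = 0.936). In bulk RNA fewer cells of a type and less RNA per cell cannot be told apart. The part of these cells in the members' values was not tested beyond correlation.

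Of 24 correlations between the 8 members and the mean log2 CPM of endothelial, pericyte and fibre markers, 1 passed the adjusted threshold by Pearson's r. Epas1 and the pericyte and smooth muscle markers had an r of 0.80 (permutation p = 0.00183, adjusted 0.0439), but a rho of 0.60 (permutation p = 0.0570, adjusted 0.212) and an r of 0.54 without the 2 farthest libraries. Within the groups r was 0.89 with DMSO and 0.77 with myriocin. Next came Vegfb with endothelial (r 0.71) and fibre markers (0.72), Vegfa with pericyte and smooth muscle markers (0.69) and Hif1a with fibre markers (-0.71). Each had an adjusted permutation p of 0.0646 by r and of at least 0.212 by rho. With endothelial markers Epas1 had an r of 0.44 (permutation p = 0.180, adjusted 0.393) and a rho of 0.14 (permutation p = 0.696), and Vegfa an r of 0.32 (permutation p = 0.356, adjusted 0.657) and a rho of 0.07 (permutation p = 0.836). These correlations were added after seeing the data.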

How the data were processed

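Quadriceps RNA was isolated with a Direct-zol kit and read on a DNBseq platform (labels' protocols). For the 11 libraries the authors deposited raw read counts per Ensembl gene; the submitters' processing notes name STAR 2.5.2b, HTSeq 0.6.0 and GRCm38. Strand setting, annotation release and read filters: not given in the sources used here. The 5 HTSeq summary lines (24.8% to 28.2% of reads, mostly multiple alignments) stayed out of library sizes. GENCODE M21 (GRCm38) gave symbols, positions and exon union lengths for 53360 of 53465 genes. No libraries of a group were copies: chi-square per degree of freedom was 8.18 to 44.2.

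CPM per library are counts over gene totals, without TMM. Tests used edgeR 4.0.16 in R 4.3.3: filterByExpr (minimum count 10, total 15), TMM, and the quasi-likelihood test with robust estimation in its current form, treatment as the only factor, Benjamini-Hochberg over 14117 genes. SE was calculated back from F. The test was checked on simulated data. Correlations used log2 CPM after TMM with a prior count of 2. Alternatives were DESeq2 1.42.0, limma-voom (limma 3.58.1), other scalings and filters, and left-out libraries. The floor covers counting error alone, and reads may include PCR copies.

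The 8 members and all lists were chosen with earlier results of these data known. Named are all members, the tested receptors and other ligands, the 4 genes with the smallest p of the HIF and hypoxia lists, and per member the 3 genes with the highest Pearson r (mean of at least 1 CPM, no predicted genes, members left out). Cldn5, Myh4, Prox1, Lyve1, Mmrn1, Pdpn, Ccl21a and the libraries that stand apart were named after their values were seen.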

Additional observations from a re-analysis of the deposited data

Results flagged for a closer look

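In 42 groups of libraries (members, ratios and marker sums, by treatment) 5 had a library far from the others by Dixon's test, which chance gives in about 5% of groups. Hif1a in Myriocin replicate 4 stood at 11.2 CPM, while the other 5 of its group lay close together. In DMSO replicate 2 the summed macrophage markers reached 264 CPM, neutrophil markers 425 CPM and adipocyte markers 325 CPM. Liver transcripts in Myriocin replicate 4 summed to 118 CPM.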

How the results depend on the processing

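Each member was refitted under 24 alternatives, and none passed the adjusted threshold in any of them (lowest adjusted p 0.471; lowest unadjusted p 0.0154, Angpt2 without Myriocin replicate 1). Vegfa, Vegfb, Angpt1, Hif1a and Epas1 stayed negative and Angpt2 and Apln positive in all 24. Vegfc turned to -0.0152 without scaling beyond library totals, and ranged from -0.0655 to 0.098 with 1 library left out. Leaving out single libraries gave -0.23 to -0.10 for Vegfa, -0.22 to -0.05 for Vegfb, -0.26 to -0.16 for Angpt1, 0.24 to 0.49 for Angpt2, -0.14 to -0.01 for Hif1a, -0.15 to -0.05 for Epas1 and 0.24 to 0.48 for Apln. DESeq2 called 6 genes where the other settings called 0. The 660 genes at an unadjusted p under 0.05 became 1167 when no gene was filtered for low counts, 1022 without the 3 libraries with liver transcripts and 1140 without the 3 farthest out. With single libraries left out the count ran from 493 to 1449, the latter without Myriocin replicate 4, and no gene passed the adjusted threshold (0 to 0). The cause was not tested. The replicate numbers are shared by name only: deviations of same-numbered libraries correlated at -0.132 to 0.087, and 0 of 5 DMSO libraries correlated best with their own number. With the number as a block over 10 libraries, 509 genes reached an unadjusted p under 0.05 (558 without the block) and 0 the adjusted threshold, with log2 fold changes of -0.21 for Vegfa, -0.18 for Angpt1 and 0.33 for Angpt2. The older form of edgeR and the fit of 10 libraries without a block were added after seeing the data. With 21 to 66 reads per library, small changes of Vegfc, Angpt2 and Apln were not detectable at this depth.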
